A study of Mus musculus with 18 samples.

Results

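The matrix metalloproteases (MMPs), the ADAM and ADAMTS proteases and the tissue inhibitors of metalloproteases (TIMPs) were followed across 6 treatment groups of mouse tubular epithelial cells. Members were all genes whose symbol begins with Mmp, Adam or Timp followed by a digit, or with Adamts, which gave 84 of the 55487 genes in the table. They comprised 23 MMPs, 33 ADAMs, 19 ADAMTS proteases, 5 ADAMTS-like genes and 4 TIMPs. TGFβ raised Timp1, Timp3, Mmp2, Mmp9, Mmp14, Adam12, Adamts4, Adamts6 and Adamts16 in cells without a supplement, and lowered Adamts1 and Adamtsl4. Nicotinamide moved none of the tested members past the threshold, though Mmp2 was called against control in 2 alternative fits. With S-adenosyl methionine alone, Timp1, Timp3, Mmp14, Adamts4 and Adamts5 were called lower than in control and Adamts1 and Mmp15 higher. Libraries with this supplement carry numbers apart from the rest. The labels name no separate preparation, but one could not be told apart from the supplement. Mmp15 overlapped control, and its log2 change of 0.94 was 0.13 without the libraries whose treatment tags conflict with their titles. In that fit Adamts1, Mmp14 and Timp3 changed by 0.39, -0.43 and -0.30, beside 0.38, -0.39 and -0.33 with all libraries.

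The cells were im-TEC, conditionally immortalized mouse kidney tubular epithelial cells that carry SV40 large T antigen. Per the labels, all groups were kept at restrictive conditions without interferon-γ before seeding, and the maintenance medium held serum, hydrocortisone and epidermal growth factor. The groups were untreated control, TGFβ at 10 ng/mL, nicotinamide (NAM) at 1 mM, S-adenosyl methionine (SAM) at 0.5 mM, and TGFβ combined with either. Each treatment lasted 48 h and each group had 3 libraries. The labels do not say whether replicates were separate cultures or how many clones the line holds, so p-values measure only the spread between these libraries. NAM and SAM are the substrates of nicotinamide N-methyltransferase, the enzyme the series is about, and TGFβ is a profibrotic cytokine.

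MMPs are zinc-dependent proteases, secreted or held at the membrane as inactive precursors, that cleave collagens, gelatin and other matrix proteins once their propeptide is removed. ADAMs are mostly membrane-bound proteases that release growth factors and adhesion molecules from the cell surface, and ADAMTS proteases are secreted relatives that act on proteoglycans, procollagens and microfibrils. TIMPs bind the active site of these enzymes and block them. In the kidney the balance between both sides is studied in the turnover of basement membrane and in fibrosis. RNA levels, which were measured here, do not show whether a precursor is activated or inhibited.

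Between 4171170 and 7717626 reads fell in genes per library and 15236 to 16379 genes were detected. On the third principal component, 2 libraries lay far from the rest: replicate 3 of NAM and replicate 1 of TGFβ+NAM. The treatment tags of SAM replicates 2 and 3 disagreed with their titles, which were used here. The libraries with SAM carry library numbers separated from the rest by a gap of 6. The labels name no preparation batch, but a separate preparation, if there was one, could not be told apart from SAM. Epcam was at 0 in every library and Cdh1 had few reads. The summed level of 11 tubular markers nevertheless lay between 1890 and 1977 CPM (gene reads scaled to library size with TMM factors) in control cells, and between 760.2 and 852.5 CPM with TGFβ. Most of that fall was Aqp1 (1031 ± 49.2 to 106 ± 21.3 CPM, SD, n = 3), while Krt8 of the same list was called higher (99.4 ± 6.11 to 189 ± 6.65 CPM). Summed fibroblast markers (5 genes, of which Pdgfrb and Col1a2 could be tested and Lum was at 0) lay at 1.52 to 3.72 CPM in control libraries, 18.1 to 23.4 CPM with TGFβ, 22.6 to 40.4 CPM with TGFβ+NAM and 25.1 to 31.9 CPM with TGFβ+SAM. Immune markers, mostly Csf1r and Cd68 with Adgre1 and Itgam at 0, summed to 101 to 102.5 CPM in control, 55.8 to 73.8 CPM with TGFβ and 113.6 to 132.4 CPM with SAM. The part of such markers in the results below was not tested, and in bulk libraries fewer cells of a type cannot be told apart from less RNA per cell.

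Of the 84 genes, 27 had enough reads to be tested, 24 had reads but stayed below the low-count filter, and 33 had no read in any library. The tested genes were 8 MMPs, 6 ADAMs, 8 ADAMTS proteases, 2 ADAMTS-like genes and 3 TIMPs. Adam12 and Adamts16 passed the filter only through libraries with TGFβ, and Mmp10 and Mmp23 only through libraries without it, while 22 passed on both sides. Adamts7 passed on neither side alone, only in all 18 libraries together. A gene counted as changed where its Benjamini-Hochberg adjusted p from edgeR's quasi-likelihood test over 13469 genes was under 0.05. With TGFβ alone, 11 of the 27 changed, beside 19.4% of all genes tested. Of these 9 were higher, beside 9.7% of all genes, and 2 lower, beside 9.74%. The median fitted log2 change of the 27 was 0.07, beside 0.01 over all genes tested, whose median lay between -0.01 and 0.01 in each of the 10 tests. TGFβ+NAM against NAM also gave 11 changed members, beside 21.9% of all genes, with 9 higher (10.9% of all genes) and 2 lower (11%). TGFβ+SAM against SAM gave 13, beside 28.4%, with 11 higher and 2 lower (14.2% of all genes each way). Their median log2 changes were 0.25 and 0.14. The 11 members that changed without a supplement changed in the same direction with NAM and with SAM present. These 3 comparisons share no library. Adam12 and Adamts16 are among the higher members of each, and they entered the 27 only through their level with TGFβ. The filter thus favoured a rise for these 2, and the counts of higher members include them.

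**Figure D1:**
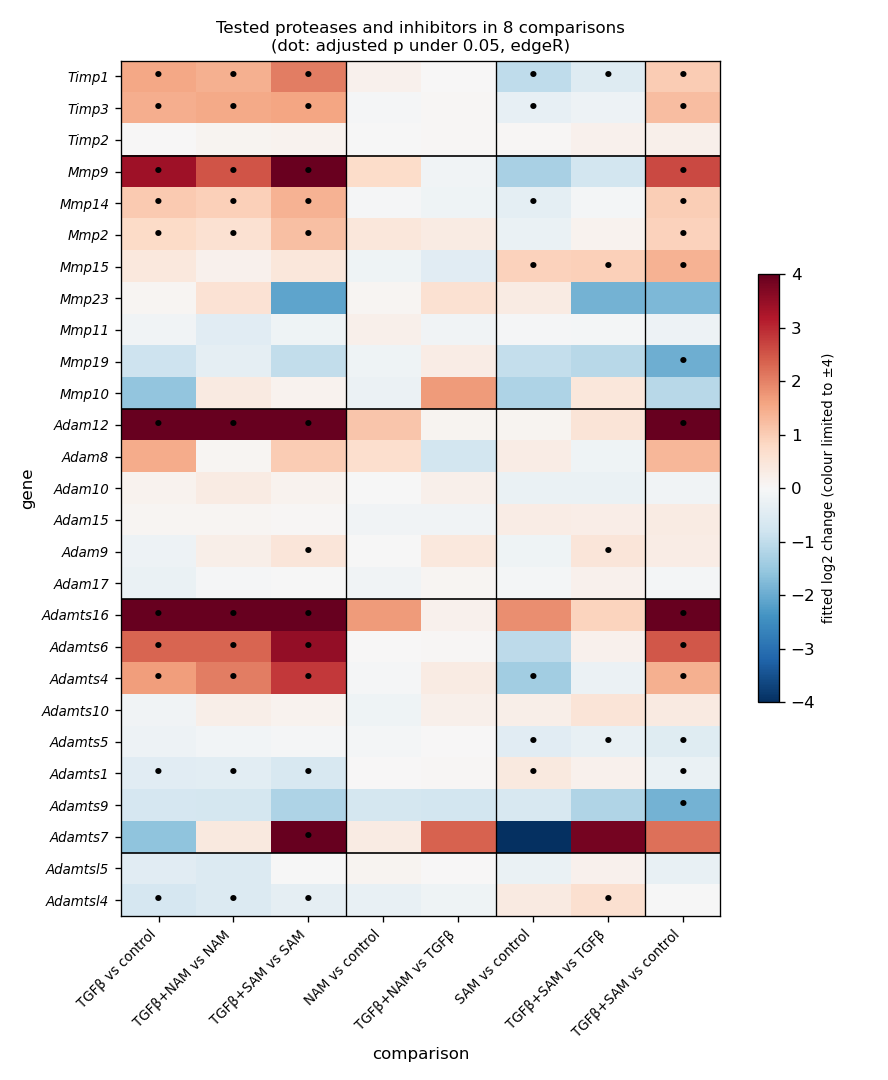
Fitted log2 changes of the 27 tested genes (rows, grouped as TIMP, MMP, ADAM, ADAMTS and ADAMTS-like) in 8 comparisons (columns), with colour limited to ±4 and a dot where the edgeR adjusted p was under 0.05. The TGFβ columns on the left carry 11, 11 and 13 dots and both NAM columns carry none. The rows of Adamts7, Mmp10 and Mmp23 rest on few reads.

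Both TIMPs that changed rose with TGFβ, and Timp2 did not pass the test in any comparison with all libraries. Timp1 (chrX:20870166-20874735, plus strand, inside the span of Syn1) encodes a secreted inhibitor of most MMPs. Its level was 23.0, 28.9 and 26.0 CPM in the control libraries and 70.1, 82.6 and 76.4 CPM with TGFβ. It was 31.5, 27.5 and 27.9 CPM with NAM and 81.0, 78.2 and 73.6 CPM with TGFβ+NAM. In the SAM libraries it was 10.6, 12.0 and 16.2 CPM, and with TGFβ+SAM 48.7, 68.3 and 41.7 CPM. Each TGFβ group lay above its partner group without overlap, and the 3 SAM libraries lay below every control library. The log2 change with TGFβ was 1.56 ± 0.16 (SE; edgeR Benjamini-Hochberg adjusted p = 2.48e-10) without supplement, 1.42 with NAM and 2.04 with SAM.

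Timp3 (chr10:86300372-86349506, plus strand) encodes the matrix-bound TIMP, which also inhibits several ADAM and ADAMTS proteases. It stood at 595, 621 and 619 CPM in control cells and at 1586, 1594 and 1807 CPM with TGFβ. With NAM the libraries held 598, 596 and 591 CPM, and with TGFβ+NAM 1737, 1771 and 1613 CPM. SAM libraries held 499, 482 and 478 CPM and TGFβ+SAM libraries 1488, 1624 and 1244 CPM. The 9 libraries with TGFβ were all above the 9 without it. Its log2 rise was 1.44 ± 0.08 (SE; edgeR Benjamini-Hochberg adjusted p = 1.15e-17) without supplement, 1.52 with NAM and 1.58 with SAM. Exons of Timp3 and of Syn3, on the opposite strand, share 1733 bases, and Syn3 held 86 reads in all.

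Timp2 (chr11:118301069-118355740, minus strand), whose product takes part in the activation of pro-MMP2 by MMP14, had 1926, 1684 and 1831 CPM in control cells and 1714, 1895 and 1943 CPM with TGFβ. It was 1899, 1956 and 1523 CPM with NAM and 1645, 2058 and 2093 CPM with TGFβ+NAM. With SAM it was 1922, 1762 and 1967 CPM and with TGFβ+SAM 2472, 2205 and 1543 CPM. All 6 groups overlapped, and its log2 difference between TGFβ and control was 0.03 ± 0.11 (SE). The lowest values belonged to NAM replicate 3, TGFβ+NAM replicate 1 and TGFβ+SAM replicate 3. Without TGFβ+SAM replicate 3, Timp2 was called higher with TGFβ+SAM than in control (0.36, adjusted p 0.00386), SAM (0.31, 0.014) and TGFβ (0.33, 0.0247), against 0.19, 0.14 and 0.16 with it. Timp4 had 11 reads over all libraries and was not tested.

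**Figure D2:**
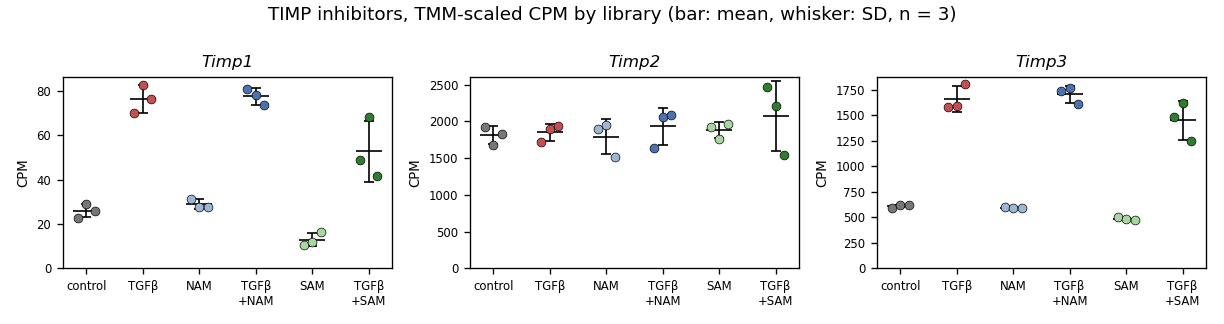
Levels of Timp1, Timp2 and Timp3 in TMM-scaled CPM (y axis, from 0) in the 6 groups (x axis); each point is 1 of 3 libraries, the bar is the mean and the whiskers are the SD. Timp1 and Timp3 are higher in each TGFβ group than in the group without TGFβ beside it, and Timp2 overlaps between all groups.

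RefSeq promoter windows (build GRCm38.p6, 250 bases before to 50 bases after the start) were matched for 53 members, of which 16 were tested. Those of Timp1 (chrX:20869916-20870215, plus strand), Timp3 (chr10:86300162-86300461, plus strand) and Mmp14 (chr14:54431348-54431647, plus strand) are shown. Of the genes that rose with TGFβ and fell with SAM alone, these 3 had a window and Adamts4 had none. No window was matched for Mmp2, Mmp9, Adam12, Adamts6 and Adamts16 either, so the letters were searched in 3 of the 9 members that rose with TGFβ. Capitals mark the GC box letters GGGCGG on either strand. Neither the AP-1 letters TGANTCA nor the SMAD letters CAGACA occurred on either strand of these 3 windows. Only exact letters were searched, so stretches that differ by a base, such as tgagtaa in the Timp1 window, were not counted. GGGCGG occurred in a window of 15 of the 16 tested members and in the promoters of 38.2% of 27025 genes, CAGACA in 2 of the 16 and in 23.6% of genes. Of the other matched members, 7 of 15 below the filter and 5 of 22 without reads held GGGCGG. The 27025 genes were not chosen by reads and the 16 were, so these shares are not like for like.
Timp1: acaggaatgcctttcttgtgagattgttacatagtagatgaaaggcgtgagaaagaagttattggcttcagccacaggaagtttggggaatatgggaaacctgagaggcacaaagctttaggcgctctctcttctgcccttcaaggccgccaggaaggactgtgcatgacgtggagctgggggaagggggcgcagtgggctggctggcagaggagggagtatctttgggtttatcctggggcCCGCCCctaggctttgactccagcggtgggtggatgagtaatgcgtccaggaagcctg
Timp3: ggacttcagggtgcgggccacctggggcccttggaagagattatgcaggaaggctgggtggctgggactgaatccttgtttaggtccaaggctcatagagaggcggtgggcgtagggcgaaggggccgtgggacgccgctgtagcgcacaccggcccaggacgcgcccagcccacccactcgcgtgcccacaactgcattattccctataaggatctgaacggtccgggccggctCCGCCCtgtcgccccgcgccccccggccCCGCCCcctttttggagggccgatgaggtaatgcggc
Mmp14: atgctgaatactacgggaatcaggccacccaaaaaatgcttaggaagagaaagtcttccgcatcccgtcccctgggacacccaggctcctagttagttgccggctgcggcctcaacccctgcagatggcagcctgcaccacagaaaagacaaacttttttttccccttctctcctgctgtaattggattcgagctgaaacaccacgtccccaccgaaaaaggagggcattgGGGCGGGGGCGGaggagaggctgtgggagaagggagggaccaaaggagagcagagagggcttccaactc

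Among the MMPs, both gelatinases and the membrane-type protease Mmp14 rose with TGFβ in each of the 3 settings. Mmp2 (gelatinase A; chr8:92827291-92853420, plus strand) had 79.8, 98.1 and 83.9 CPM in control cells and 153, 138 and 156 CPM with TGFβ. It held 117, 118 and 126 CPM with NAM and 225, 165 and 166 CPM with TGFβ+NAM, and 77.8, 76.4 and 62.1 CPM with SAM and 149, 175 and 172 CPM with TGFβ+SAM. No library with TGFβ overlapped those of its partner group. The log2 rise was 0.77 ± 0.11 (SE; edgeR Benjamini-Hochberg adjusted p = 1.37e-06) without supplement, 0.62 with NAM and 1.19 with SAM.

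Mmp9 (gelatinase B; chr2:164940780-164955850, plus strand) was low without TGFβ, at 0.564, 3.57 and 1.01 CPM in control, 3.05, 2.83 and 2.79 CPM with NAM and 0.607, 0.938 and 0.517 CPM with SAM. With TGFβ it reached 18.5, 18.4 and 17.9 CPM, with TGFβ+NAM 18.1, 11.5 and 20.3 CPM and with TGFβ+SAM 14.2, 9.95 and 9.0 CPM. All 9 libraries with TGFβ lay above the 9 without it. The fitted log2 rise was 3.38 ± 0.39 (SE; edgeR Benjamini-Hochberg adjusted p = 6.90e-09) without supplement, 2.52 with NAM and 3.96 with SAM. Control replicate 2 held more Mmp9 than the other 2 control libraries, and without it the rise over control was 4.53.

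Mmp14 (chr14:54431612-54445364, plus strand), whose membrane-anchored product cleaves collagen and activates pro-MMP2, had 125, 136 and 130.1 CPM in control and 245, 241 and 329 CPM with TGFβ. With NAM it had 131, 122 and 123 CPM and with TGFβ+NAM 238, 235 and 252 CPM. SAM libraries held 97.2, 96.0 and 105 CPM and TGFβ+SAM libraries 269, 267 and 240.2 CPM. Every library with TGFβ was above every library without it, and all 3 SAM libraries were below every control library. Its log2 rise with TGFβ was 1.05 ± 0.10 (SE; edgeR Benjamini-Hochberg adjusted p = 3.09e-11), and 0.95 and 1.38 with NAM and SAM present.

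Mmp15 (chr8:95352268-95375080, plus strand), a second membrane-type protease, was called with SAM, and TGFβ against control did not pass. It had 12.1, 11.9 and 18.1 CPM in control, 21.7, 14.1 and 20.6 CPM with TGFβ, 12.8, 13.4 and 10.9 CPM with NAM and 15.1, 12.8 and 13.6 CPM with TGFβ+NAM. The SAM libraries held 15.3, 37.4 and 27.6 CPM and overlapped control, while the TGFβ+SAM libraries, at 36.0, 39.0 and 34.0 CPM, lay above all libraries without SAM. TGFβ+SAM exceeded TGFβ by 0.95 ± 0.23 (SE, log2; edgeR Benjamini-Hochberg adjusted p = 0.00523), and without TGFβ replicate 2 by 0.77 with an adjusted p of 0.0634. SAM alone exceeded control by 0.94 ± 0.23 (adjusted p 0.00496). That call was lost without SAM replicate 2 (0.61, adjusted p 0.115) and without both SAM libraries whose tags conflict (0.13, adjusted p 0.885). TGFβ+SAM exceeded SAM by 0.44 ± 0.22 (adjusted p 0.139), and this difference was called without SAM replicate 2 (0.76, adjusted p 0.0157) and without both of those libraries (1.24, 0.00289).

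**Figure D3:**
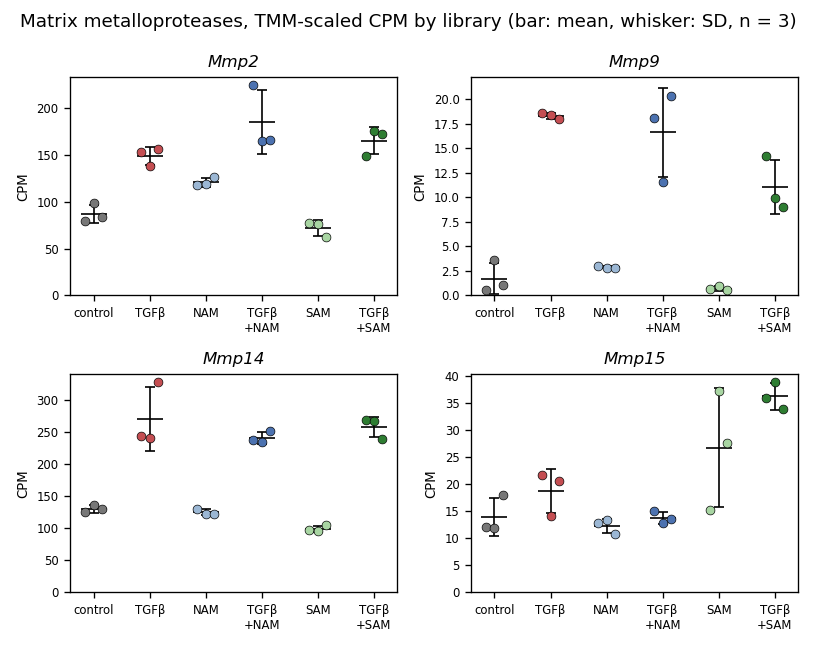
Levels of Mmp2, Mmp9, Mmp14 and Mmp15 in TMM-scaled CPM (y axes, from 0) in the 6 groups (x axis), with 1 point per library, the mean as a bar and the SD as whiskers (n = 3). Mmp2, Mmp9 and Mmp14 are higher in each TGFβ group than in its partner group, whereas Mmp15 is highest with TGFβ+SAM (34.0 to 39.0 CPM) and is spread from 15.3 to 37.4 CPM with SAM alone.

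Of the other tested MMPs, Mmp19 (chr10:128790910-128800824, plus strand), a secreted protease, fell with TGFβ+SAM against control by 1.94 ± 0.45 on the log2 scale (SE; edgeR Benjamini-Hochberg adjusted p = 0.000904). It had 9.16, 6.58 and 7.77 CPM in control, 5.39, 2.99 and 4.91 CPM with TGFβ, 4.06, 9.89 and 6.69 CPM with NAM and 6.03, 5.45 and 4.66 CPM with TGFβ+NAM. SAM libraries held 3.80, 6.41 and 1.72 CPM and TGFβ+SAM libraries 2.13, 1.47 and 2.48 CPM, the latter below all other groups except 1 SAM library. Its exons share 789 bases with Tmem198b on the opposite strand, and no source used here gives the strand setting of the counting. Mmp11 (stromelysin 3), with group means of 18.8 ± 0.672 to 25.9 ± 6.47 CPM (SD, n = 3), did not pass in any comparison. Mmp10 and Mmp23 stayed below 3 CPM in every library and did not pass either. Chchd10, which shares 155 exon bases with Mmp11, differed by -2.68 on the log2 scale between TGFβ and control.

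The collagenases Mmp1a, Mmp1b and Mmp13, but not Mmp8, and the stromelysin Mmp3 were silent at this depth. A cluster of 10 Mmp genes spans 427.1 kb of chromosome 9 (chr9:7272514-7699585), and 7 of the 10 (Mmp13, Mmp12, Mmp1b, Mmp3, Mmp1a, Mmp20 and Mmp7) had no read in any of the 18 libraries. Mmp8 had 39 reads and Mmp27 had 2, and Mmp10 (stromelysin 2), the one gene of the cluster that could be tested, had 133. Together the cluster held 174 of 112711471 reads. A gene without reads may still lie at up to 0.0266 CPM, a limit of 3 reads over all libraries that covers counting error only. In the cluster, 8 genes hold the AP-1 letters TGANTCA in their RefSeq promoter window (GRCm38.p6), and the stretches are shown because 7 of the 8 belong to genes without reads while AP-1 letters were in the promoters of 8.97% of 27025 genes. Among matched members at least 1 window held the letters for 1 of 16 tested genes, 1 of 15 genes below the filter and 11 of 22 genes without reads. Of the 27 tested genes only these 16 were matched, without Mmp2, Mmp9, Adam12, Adamts4, Adamts6 and Adamts16. Capitals mark the AP-1 letters, 15 bases are given on each side, and each stretch runs 5′ to 3′ on the strand of its gene. The first AP-1 base lies between position -95 (Mmp20) and -35 (Mmp13) relative to the start.
Mmp1a: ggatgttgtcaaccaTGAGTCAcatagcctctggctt
Mmp1b: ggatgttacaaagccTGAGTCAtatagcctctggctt
Mmp3: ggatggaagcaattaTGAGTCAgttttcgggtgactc
Mmp7: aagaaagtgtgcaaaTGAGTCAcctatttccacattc
Mmp10: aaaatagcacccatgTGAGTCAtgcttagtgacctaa
Mmp12: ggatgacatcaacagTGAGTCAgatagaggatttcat
Mmp13: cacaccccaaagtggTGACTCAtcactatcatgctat
Mmp20: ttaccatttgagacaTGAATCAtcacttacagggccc

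Of the 6 tested ADAMs, Adam12 was the one that changed with TGFβ in all 3 settings. It passed the low-count filter only through libraries with TGFβ, the groups in which it was then called higher. Adam12 (chr7:133883199-134232146, minus strand) encodes a membrane protease of mesenchymal cells that can release heparin-binding EGF. It was at 0.423, 1.14 and 0 CPM in control, 3.05, 0.257 and 0.418 CPM with NAM and 0.456, 0.469 and 0.862 CPM with SAM. With TGFβ it was at 27.6, 15.9 and 22.4 CPM, with TGFβ+NAM at 25.4, 26.3 and 19.9 CPM and with TGFβ+SAM at 38.8, 25.1 and 30.4 CPM. The lowest library with TGFβ exceeded the highest without it, which was NAM replicate 1. The fitted log2 rise was 4.29 ± 0.42 (SE; edgeR Benjamini-Hochberg adjusted p = 1.14e-10) with NAM and 5.70 ± 0.48 (adjusted p 1.07e-12) with SAM, beside 5.28 without supplement. Leaving out NAM replicate 1 moved the first to 6.08, and leaving out control replicate 2 moved the last to 6.46, so the size of the rise rests on few reads in the untreated libraries.

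Adam10 and Adam17, the main sheddases of Notch, cadherins, tumour necrosis factor and EGF-family ligands, did not pass in any comparison. Adam10 ranged over group means of 51.8 ± 3.07 to 78.4 ± 5.10 CPM (SD, n = 3) and Adam17 over 54.5 ± 3.27 to 65.9 ± 0.982 CPM. The log2 differences between TGFβ and control were 0.14 ± 0.13 and -0.27 ± 0.13 (SE). Between TGFβ+NAM and NAM, Adam10 differed by 0.33 ± 0.13 (adjusted p 0.0537), and this was called in 7 of 27 alternatives, among them DESeq2 (0.0413) and the fit without NAM replicate 3 (0.46, adjusted p 0.0133). Adam15 did not pass either, with its lowest values in TGFβ+NAM replicate 1 (127 CPM), NAM replicate 3 (141 CPM), TGFβ replicate 1 (183 CPM) and TGFβ+SAM replicate 3 (194 CPM). Its excess with TGFβ+SAM over control, 0.33 ± 0.15 (adjusted p 0.119), was called in 5 alternatives, among them those without TGFβ+SAM replicate 3 (0.49, 0.0178) or TGFβ+NAM replicate 1 (0.32, 0.0375). Its excess with SAM over control, 0.29 ± 0.15, was called in 3 (adjusted p down to 0.00215 with only the compared groups). Adam8 stood at 2.25, 0.858 and 2.53 CPM in control and 7.25, 4.24 and 4.42 CPM with TGFβ, without overlap, but its log2 difference of 1.5 ± 0.57 missed the threshold (edgeR adjusted p 0.0594). It was called in 8 alternatives, among them DESeq2 (0.0333) and only the compared groups (0.0216).

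Adam9 (chr8:24949611-25016927, minus strand), a widely expressed membrane protease, rose with TGFβ+SAM against SAM by 0.48 ± 0.16 (SE, log2; edgeR Benjamini-Hochberg adjusted p = 0.0175). It had 33.3, 33.9 and 35.8 CPM in control, 31.3, 28.1 and 30.2 CPM with TGFβ, 35.3, 28.3 and 38.4 CPM with NAM and 47.9, 32.9 and 40.4 CPM with TGFβ+NAM. With SAM it had 27.9, 30.3 and 32.4 CPM and with TGFβ+SAM 37.4, 41.9 and 46.7 CPM. The TGFβ+SAM libraries lay above all control, TGFβ and SAM libraries. TGFβ+SAM exceeded TGFβ by 0.49 (adjusted p 0.046), a call that was lost in 14 of the 27 alternatives run, with adjusted p between 0.0253 and 0.164 over them. Single libraries that ended it were each control and each TGFβ library, NAM replicate 1, TGFβ+NAM replicate 3, and replicates 2 and 3 of SAM and of TGFβ+SAM. The call against SAM was lost without SAM replicate 1 (adjusted p 0.0727), without TGFβ+SAM replicate 3 (0.0968) and without both SAM libraries with conflicting tags (0.077).

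The ADAMTS proteases moved in both directions. Adamts4, Adamts6 and Adamts16 rose and Adamts1 fell with TGFβ in all 3 settings, out of 8 tested of 19. Adamts4 (chr1:171250421-171260637, plus strand) encodes an aggrecan- and versican-cleaving protease. It was at 31.6, 35.9 and 37.3 CPM in control and 96.0, 110.1 and 128 CPM with TGFβ. It was at 29.9, 34.2 and 36.7 CPM with NAM and 157, 144 and 117 CPM with TGFβ+NAM, at 9.87, 16.1 and 14.1 CPM with SAM and at 94.8, 101 and 86.3 CPM with TGFβ+SAM. All libraries with TGFβ were above all without it, and the SAM libraries were below all others. The log2 rise with TGFβ was 1.67 ± 0.14 (SE; edgeR Benjamini-Hochberg adjusted p = 1.12e-12) without supplement, 2.05 with NAM and 2.81 with SAM.

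Adamts6 (chr13:104287835-104496695, plus strand), a secreted protease linked to microfibrils, had 2.54, 2.29 and 1.35 CPM in control and 11.5, 8.96 and 11.1 CPM with TGFβ. It had 4.21, 1.93 and 0.279 CPM with NAM and 8.51, 13.1 and 10.8 CPM with TGFβ+NAM, and 1.37, 1.25 and 0.345 CPM with SAM and 10.8, 10.3 and 14.3 CPM with TGFβ+SAM. All libraries with TGFβ lay above all without it. The log2 rise was 2.32 ± 0.46 (SE; edgeR Benjamini-Hochberg adjusted p = 0.000163) without supplement, 2.34 with NAM (3.25 without NAM replicate 1) and 3.53 with SAM.

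Adamts16 (chr13:70727802-70841811, minus strand) had no read in the 3 control libraries and 54 reads with TGFβ, at 2.53, 5.03 and 1.72 CPM. Set against the limit of 3 reads over the control group, it was at least 22.0-fold higher with TGFβ. NAM libraries held 1 read and TGFβ+NAM libraries 62, at 4.61, 3.53 and 2.51 CPM, a ratio of 77.6 with a 95% counting interval of 13.4 to 3114. SAM libraries held 1 read and TGFβ+SAM libraries 107, at 6.38, 5.71 and 5.59 CPM, a ratio of 110.3 with an interval of 19.4 to 4397. Reads were thus found in all 9 libraries with TGFβ and in 2 of the 9 without it. The edgeR Benjamini-Hochberg adjusted p values were 1.91e-05, 2.52e-05 and 3.16e-06. Adamts16 passed the low-count filter only through libraries with TGFβ, the groups in which it was then called higher. Adamts7, a protease of cartilage oligomeric matrix protein, had its highest values in TGFβ+SAM replicates 3 and 1 and NAM replicate 1 (3.10, 1.95 and 1.60 CPM). It thus passed the low-count filter in part through the group in which it was then called higher. Adamts7 rose with TGFβ+SAM against SAM, from 0 to 36 reads (at least 12.4-fold, adjusted p 0.00444). That call was lost without both SAM libraries with conflicting tags (adjusted p 0.152).

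Adamts1 and Adamts5, proteoglycan-cleaving proteases encoded near each other on chromosome 16, moved in opposite directions with SAM alone. Adamts1 (chr16:85793827-85803113, minus strand) had 755, 736 and 753 CPM in control and 623, 534 and 498 CPM with TGFβ. It had 743, 712 and 818 CPM with NAM and 608, 583 and 523 CPM with TGFβ+NAM, and 981, 989 and 950.2 CPM with SAM and 564, 633 and 677 CPM with TGFβ+SAM. All libraries with TGFβ were below all without it, and the SAM libraries were above all others. With TGFβ it fell by 0.44 on the log2 scale without supplement (edgeR Benjamini-Hochberg adjusted p = 0.000115), by 0.41 with NAM and by 0.64 with SAM.

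Adamts5 (chr16:85856173-85901828, minus strand) had 549, 555 and 595 CPM in control, 497, 484 and 495 CPM with TGFβ, 519, 536 and 552 CPM with NAM and 459.9, 551 and 486 CPM with TGFβ+NAM. It was at 405, 428 and 419 CPM with SAM and 431, 391 and 389.8 CPM with TGFβ+SAM. All 6 libraries with SAM lay below all 12 without it. Its difference between TGFβ and control, -0.20 ± 0.08 (SE, log2), missed the threshold (edgeR adjusted p 0.0638) and was called in 7 alternatives, among them DESeq2 (0.024) and library totals (0.0272). Adamts9, another member of this proteoglycan-cleaving group, fell with TGFβ+SAM against control, from 5.50, 3.57 and 6.93 to 0.709, 2.61 and 0.931 CPM, without overlap. It was at 2.86, 5.18 and 1.72 CPM with TGFβ, 3.05, 2.83 and 3.91 CPM with NAM, 1.95, 1.76 and 2.33 CPM with TGFβ+NAM and 2.28, 4.06 and 3.79 CPM with SAM. The log2 change of -1.89 ± 0.57 against control (adjusted p 0.0104) lost its call when control replicate 3 (adjusted p 0.0538) or TGFβ+SAM replicate 1 (0.0557) was left out, and was -2.66 without TGFβ+SAM replicate 2. Adamts10, at 18.6 ± 1.45 to 27.2 ± 3.99 CPM, did not pass in any comparison.

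Adamtsl4 (chr3:95676201-95687917, minus strand), an ADAMTS-like protein that lacks the protease domain and binds fibrillin, had 43.7, 53.6 and 58.8 CPM in control and 27.0, 32.4 and 40.3 CPM with TGFβ. It had 42.2, 47.0 and 38.5 CPM with NAM and 26.1, 27.9 and 33.4 CPM with TGFβ+NAM, and 65.9, 63.8 and 68.6 CPM with SAM and 50.9, 48.4 and 53.8 CPM with TGFβ+SAM. Each TGFβ group lay below its partner group without overlap. It fell by 0.66 on the log2 scale with TGFβ (edgeR Benjamini-Hochberg adjusted p = 0.000859), by 0.55 with NAM present and by 0.37 with SAM present. The last of these (adjusted p 0.0445) was lost in 12 of the 27 alternatives run, with adjusted p between 0.0239 and 0.256 over them. Single libraries that ended it were each SAM and each TGFβ+SAM library, control replicates 2 and 3, NAM replicate 1 and TGFβ+NAM replicate 2. Adamtsl5 did not pass in any comparison.

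**Figure D4:**
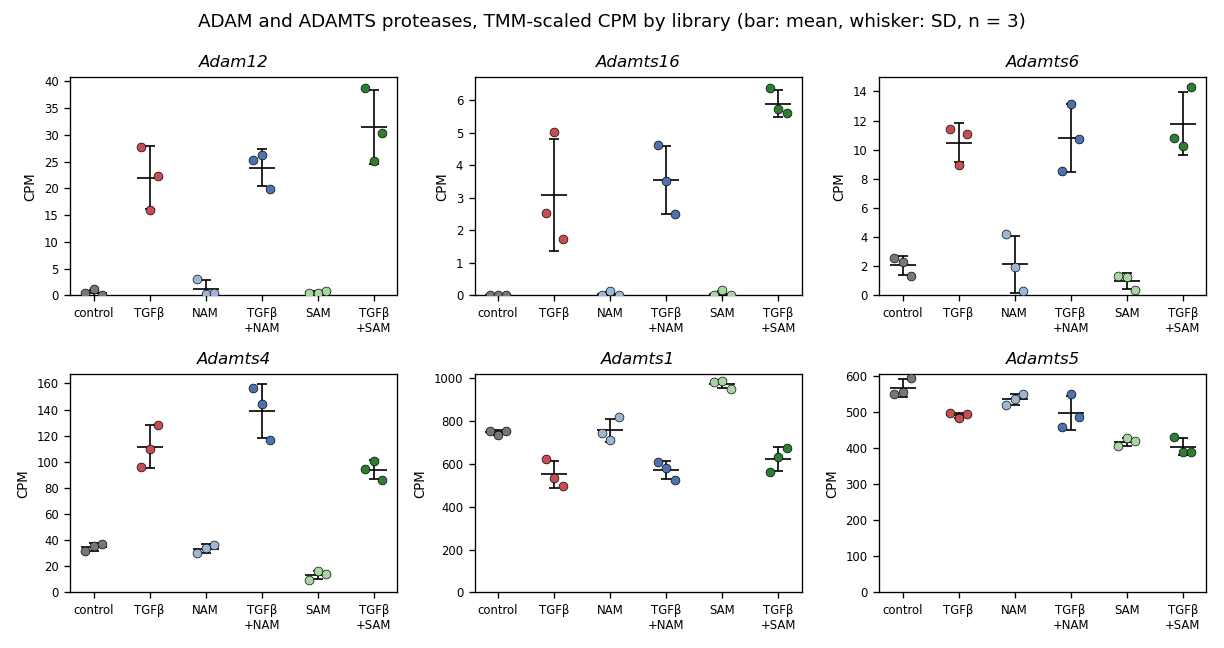
Levels of Adam12, Adamts16, Adamts6, Adamts4, Adamts1 and Adamts5 in TMM-scaled CPM (y axes, from 0, 1 scale per gene) in the 6 groups (x axis); points are libraries, bars means and whiskers SD (n = 3). Adam12, Adamts16, Adamts6 and Adamts4 are higher and Adamts1 is lower with TGFβ, and Adamts5 is lower in both groups with SAM.

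With the low-count filter applied, no member passed edgeR's test with NAM. Against control, 0 of the 27 tested genes passed, beside 0.00742% of all genes tested, with 1 member at an unadjusted p under 0.05 and 1 called by DESeq2. Both were Mmp2, at 79.8, 98.1 and 83.9 CPM in control and 117, 118 and 126 CPM with NAM, without overlap, for a log2 difference of 0.47 ± 0.11 (SE; edgeR Benjamini-Hochberg adjusted p = 0.291). DESeq2 gave Mmp2 an adjusted p of 0.0314. Without the low-count filter edgeR called it as well (0.46, adjusted p 0.0255). TGFβ+NAM against TGFβ gave 0 members with edgeR, beside 0.0817% of all genes (0.0297% higher, 0.052% lower), 3 at an unadjusted p under 0.05 and 0 with DESeq2. The median log2 difference of the 27 was -0.02 against control and 0.05 against TGFβ. For the difference between the TGFβ effects with and without NAM, edgeR called 0 members and 0% of all genes, with 1 member at an unadjusted p under 0.05 and 0 called by DESeq2. Without NAM replicate 3 and TGFβ+NAM replicate 1, which lay apart, edgeR again called 0 members in each of these 3 tests.

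SAM alone changed 7 of the 27 tested members, beside 11.8% of all genes tested, with 2 higher (5.02% of all genes) and 5 lower (6.79%). Their median log2 change was -0.26. Timp1 fell by 1.01 on the log2 scale (edgeR Benjamini-Hochberg adjusted p = 6.85e-05) and Timp3 by 0.33 (adjusted p 0.00427). Both inhibitors thus stood lower with SAM alone, while Timp2 differed by 0.05 ± 0.11 and did not pass. Among the proteases, Adamts4 fell by 1.39 (adjusted p 2.76e-08), Adamts5 by 0.44 (9.59e-05) and Mmp14 by 0.39 (0.00662). Adamts1 rose by 0.38 (adjusted p 0.00157), together with Mmp15. Without both SAM libraries with conflicting tags, where SAM is left with 1 library assumed to vary like the other groups, 3 members were called and 466 genes in all, beside 1591. Adamts1 (0.39, adjusted p 0.071), Mmp14 (-0.43, 0.121) and Timp3 (-0.30, 0.202) were then not called.

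In cells with TGFβ, SAM changed 5 of the 27, beside 7.32% of all genes, with 3 higher (3.07% of all genes) and 2 lower (4.25%). Their median log2 difference was 0.16. Mmp15, Adam9 and Adamtsl4 were higher with TGFβ+SAM than with TGFβ, the last by 0.63 ± 0.15 (SE, log2; edgeR Benjamini-Hochberg adjusted p = 0.00433). Timp1 was lower by -0.53 ± 0.15 (adjusted p 0.0225) and Adamts5 by -0.28 ± 0.08 (0.0196). All 3 TGFβ+SAM libraries of Timp1 lay below all 3 TGFβ libraries. These calls depend on single libraries. Timp1 was lost without TGFβ replicate 2 or 3 or TGFβ+SAM replicate 1 or 3 (adjusted p 0.0598 to 0.134). Adamts5 was lost without TGFβ replicate 1 or TGFβ+SAM replicate 2 or 3 (0.0535 to 0.0912), and Adamtsl4 without TGFβ replicate 1 (0.0719). The count was 2 without TGFβ replicate 1, 2 without TGFβ replicate 2, 3 without TGFβ replicate 3 and 3 without TGFβ+SAM replicate 3.

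**Figure D5:**
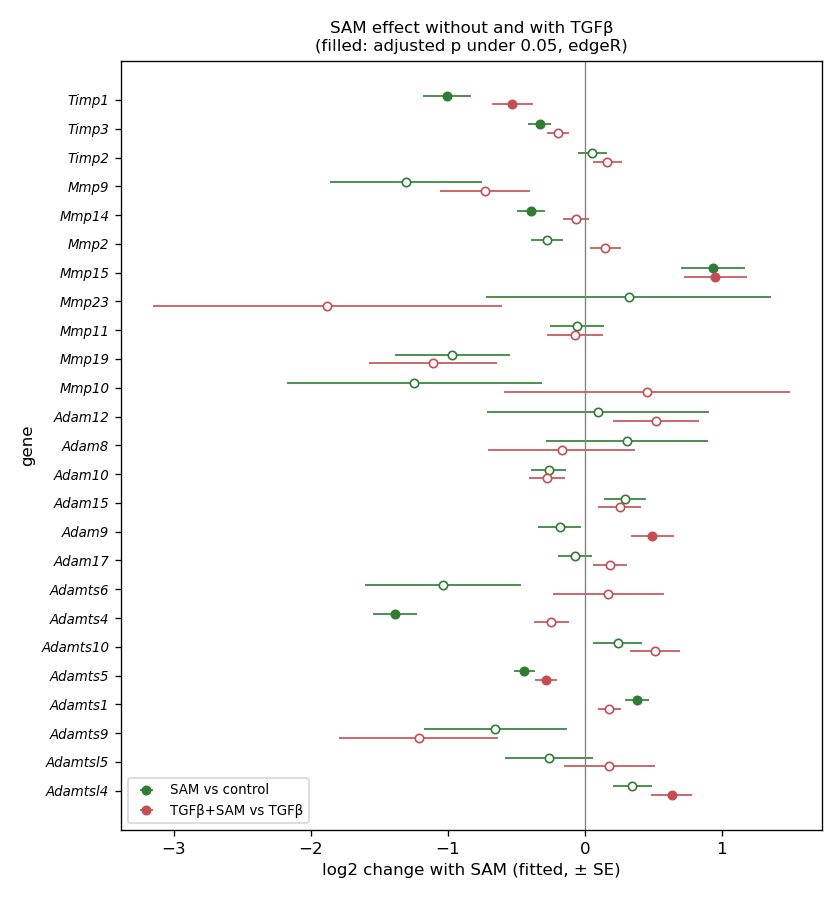
Fitted log2 change with SAM (x axis, ± SE) for 25 of the tested genes (rows), in cells without TGFβ (green) and with TGFβ (red); filled points have an edgeR adjusted p under 0.05, and Adamts7 and Adamts16 are left out because they had 0 or 1 read in a group. Timp1 and Adamts5 are lower and Mmp15 is higher in both settings, and Adamts4 is lower by 1.39 without TGFβ beside -0.24 with it.

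The difference between the TGFβ effects with and without SAM passed for 1 member, Adamts4, in the higher direction, beside 1.43% of all genes tested (0.802% higher, 0.631% lower). Its TGFβ effect was larger with SAM by 1.14 ± 0.21 (SE, log2; edgeR Benjamini-Hochberg adjusted p = 0.000774). Adamts4 was at 13.4 ± 3.18 CPM with SAM and 34.9 ± 3.00 CPM in control (SD, n = 3), whereas with TGFβ the means were 94.0 ± 7.30 and 112 ± 16.3 CPM. The call held in all 27 alternatives run, with adjusted p between 2.13e-06 and 0.00951. The median of the 27 was 0.26, and 6 members had an unadjusted p under 0.05, of which 5 did not pass. Timp1, Mmp2 and Mmp14 had differences of 0.48 ± 0.23, 0.42 ± 0.16 and 0.33 ± 0.14, none of which passed, so their TGFβ effects are not shown to differ between cells with and without SAM.

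TGFβ+SAM against untreated control gave 14 changed members of 27, beside 26.6% of all genes, with 10 higher (12.5% of all genes) and 4 lower (14.1%). The median of the 27 was 0.33. Timp1 was higher than control by 1.03 ± 0.16 (SE, log2; edgeR Benjamini-Hochberg adjusted p = 2.12e-06), Timp3 by 1.25 ± 0.08 (7.46e-16), Mmp14 by 0.99 ± 0.10 (1.30e-10) and Mmp15 by 1.38 ± 0.23 (9.21e-06). The rises of Mmp2, Mmp9, Adam12, Adamts4, Adamts6 and Adamts16 (at least 39.2-fold) make up the other 6. Among them, Adam12 and Adamts16 passed the low-count filter only through libraries with TGFβ. Adamts5 and Adamts1 were lower by 0.49 and 0.26 on the log2 scale, beside Mmp19 and Adamts9 above. The Adamts1 call (adjusted p 0.0183) was lost without control replicate 1 (0.0534), control replicate 3 (0.0519) or TGFβ+SAM replicate 1 (0.134). This comparison shares its control libraries with those of TGFβ and of SAM above.

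The plasminogen activator system, which activates several MMP precursors through plasmin, held 11 listed genes, of which 8 were tested. Plg, the gene of plasminogen itself, and the inhibitor genes Serpinb2 and Serpinf2 had no read in any library. This list and the partner lists that follow were chosen with earlier results of these data known. Their counts beside the shares of all genes are therefore descriptions and no test of a list. With TGFβ, 2 of the 8 fell, beside 9.74% of all genes. Plat, the tissue-type activator, fell from 77.5, 87.6 and 82.1 to 32.2, 28.6 and 25.1 CPM, by 1.52 on the log2 scale (edgeR Benjamini-Hochberg adjusted p = 1.29e-09), and the plasminogen receptor Plgrkt fell by 0.52. With SAM alone 4 of the 8 fell and none rose, beside 6.79% of all genes lower and 5.02% higher. Those that fell included the plasmin-docking pair S100a10 by 0.81 and Anxa2 by 0.74, and the urokinase gene Plau by 0.84. The TGFβ effect on Anxa2 was larger with SAM by 0.50 ± 0.12 (SE, log2; adjusted p 0.0152). With TGFβ+SAM against TGFβ, Plau, Plat, Plaur and S100a10 were lower, by 1.02, 0.97, 0.71 and 0.62. The Plaur call was lost in 16 alternatives (adjusted p up to 0.247), among them each of the 3 TGFβ and 3 TGFβ+SAM libraries left out, control replicate 2 or 3, NAM replicate 1, TGFβ+NAM replicate 2 and SAM replicate 3. For Plau, the SAM call was lost without any 1 control library or SAM replicate 1 or 3 (adjusted p up to 0.239), its change was -1.50 without SAM replicate 2, and the call against TGFβ was lost without TGFβ replicate 1 or TGFβ+SAM replicate 1 (up to 0.0742). The difference for Anxa2 was lost without control replicate 1 or 2, SAM replicate 2, TGFβ+SAM replicate 1 or 2, or the pair with conflicting tags (adjusted p up to 0.102).

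Among 12 listed activators, inhibitors and clearance receptors of these proteases, 7 were tested and 4 changed with TGFβ, beside 19.4% of all genes tested. Furin, the convertase that removes the propeptide of MMP14 and of many ADAMs, rose by 0.65 ± 0.13 (SE, log2; edgeR Benjamini-Hochberg adjusted p = 0.00027), from 74.1, 78.6 and 73.3 to 95.9, 128 and 133 CPM. The endocytic receptor Lrp1 rose by 0.32, a call lost without control replicate 1 or 2 or TGFβ replicate 1 (adjusted p up to 0.28). Cst3, the cysteine protease inhibitor cystatin C, fell by 0.78 and Lrp8, a second receptor of that family, by 0.87, a call lost without control replicate 3 or TGFβ replicate 1 (up to 0.143). With SAM alone Lrp1 and Lrp8 fell, by 0.59 and 0.85, and none rose, beside 6.79% of all genes lower and 5.02% higher. The Lrp8 call was lost without control replicate 1 or 3 or any 1 SAM library (adjusted p up to 0.14). Reck, a membrane inhibitor of MMPs, had 10 reads in all and was not tested.

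All 5 tested of 9 other metalloproteases and their enhancers changed with TGFβ, 3 higher and 2 lower, beside 9.7% of all genes higher and 9.74% lower. Because the list was chosen with earlier results known, this share is no test of it. Bmp1, the procollagen C-proteinase, rose by 1.01 ± 0.11 (SE, log2; edgeR Benjamini-Hochberg adjusted p = 2.41e-09). Its enhancers moved in opposite directions, with Pcolce lower by 1.11 (453, 461 and 435 CPM in control, 223, 217 and 186 CPM with TGFβ) and Pcolce2 higher by 2.00 (8.60, 12.0 and 9.80 and 33.4, 43.0 and 45.9 CPM). The membrane peptidase Ece1 rose by 0.68 and neprilysin, Mme, fell by 1.12. With SAM alone Pcolce2 fell by 1.55 and Bmp1 by 0.45, while Mme rose by 0.37, beside 11.8% of all genes that changed. The Bmp1 call was lost without SAM replicate 2 (adjusted p 0.0954), and that of Mme without control replicate 2 or SAM replicate 2 (0.0781 and 0.0682). The TGFβ effect differed with SAM for Pcolce2 by 1.67 ± 0.36 (adjusted p 0.0068) and for Mme by -0.72 ± 0.15 (0.00499). Without both SAM libraries with conflicting tags these were not called (adjusted p 0.358 and 0.0911), nor was Pcolce2 with SAM alone (0.147).

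Of 15 listed regulators of ADAM sheddases and EGF-family ligands that they release, 11 were tested, and with TGFβ 5 fell and none rose, beside 9.74% of all genes lower and 9.7% higher. Tspan5 and Tspan33, tetraspanins that escort ADAM10, fell from 206, 205 and 192 to 95.2, 73.8 and 77.1 CPM and from 26.2, 27.0 and 27.7 to 10.1, 9.58 and 8.11 CPM, by 1.29 and 1.53 on the log2 scale (edgeR Benjamini-Hochberg adjusted p = 3.71e-13 and 2.31e-07). Both sets of libraries were free of overlap, while Adam10 itself did not pass. The ligand genes Tgfa and Hbegf fell by 1.41 and 0.37, and Rhbdf1, a partner of ADAM17 in its transport, by 0.48. Hbegf was not called without TGFβ replicate 2 (adjusted p 0.0665), nor Rhbdf1 without any of 4 single libraries (control replicate 1 or 2, TGFβ replicate 1 or 2). With SAM alone 1 gene of the list rose (Tspan5, by 0.33) and 2 fell (Hbegf by 0.44 and the ligand gene Ereg by 1.24), beside 5.02% of all genes higher and 6.79% lower. Tspan5 with SAM was not called without any 1 control or SAM library, Hbegf without SAM replicate 3, and Ereg without control replicate 3 or SAM replicate 2.

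The 24 members below the filter together show few reads, and none was tested. Adam33 had 26 reads in the control libraries (2, 8 and 16), 2 with NAM and none in the other 4 groups, so that the level with TGFβ was at least 7.09-fold lower than in control by the limit of 3 reads. Mmp17, a membrane-type MMP, had 1 read in control, 4 with TGFβ, 2 with NAM, 12 with TGFβ+NAM, none with SAM and 15 with TGFβ+SAM. By library the reads of Mmp17 were 1, 1 and 10 with TGFβ+NAM and 10, 2 and 3 with TGFβ+SAM. Most reads of each of these groups thus came from 1 library. Adamts12 had 11 reads with TGFβ+SAM, 4 with TGFβ, 1 with TGFβ+NAM and none in the other groups. Adam5 had 19 reads with SAM, all in replicate 1, and 11 reads in the other 5 groups together. Adam1a, Adam4, Mmp28 and Mmp8 had 10 reads or more in some group and reads in all 6. The 33 members without reads were 17 ADAMs, among them many that are known from testis, 7 ADAMTS proteases (Adamts3, Adamts8, Adamts13, Adamts15, Adamts18, Adamts19 and Adamts20) and 9 MMPs, which were the 7 of the chromosome 9 cluster with Mmp16 and Mmp21.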

How the data were processed

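The authors deposited raw counts, reads per gene and library, from QuantSeq 3′ libraries of polyadenylated RNA. The submitters' processing notes name STAR, HTSeq and the build GRCh38, without versions, although all identifiers are those of mouse genes; the strand setting used for counting is unknown here, so reads of a gene that overlaps a member on the opposite strand cannot be told apart from its own. Because reads come from the 3′ end, a gene is compared between groups and not with other genes. Symbols and coordinates are from GENCODE M21 (GRCm38), which named 55141 of 55487 identifiers; reads outside genes (22.8% to 28.2% of a library) and ambiguous reads (0.607% to 0.779%) stayed out of all tests.

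Groups came from the titles. One edgeR 4.0.16 quasi-likelihood fit (R 4.3.3, TMM scaling, filterByExpr with a minimum count of 10, 1 term per group, all 18 libraries) gave 8 comparisons and 2 interactions, tested two-sided over 13469 genes with Benjamini-Hochberg adjustment and a threshold of 0.05. Each interaction subtracts the TGFβ effect in unsupplemented cells from that in cells with NAM or SAM. An SE is the log2 change divided by the root of F. Alternatives were DESeq2 1.42.0, its size factors in edgeR, library totals, no filter, a minimum count of 30, a replicate block, only the compared groups, and libraries left out singly or in 2 pairs.

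Folds against a group without reads use a limit of 3 reads over the group; limits and 95% intervals cover counting error only, since reads carry no molecular identifiers. Members, partner lists and markers were chosen with earlier results of these data known. Values in every library are given for called members with a mean of at least 5 CPM in some group and for tested TIMPs; members below the filter are named where a group held 10 reads or more. The GC box letters were searched after the tables had been seen. Protein sequences were not used here, and some results are not reported here.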

Additional observations from a re-analysis of the deposited data

Results flagged for a closer look

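The TGFβ effect differed between cells with and without SAM, by the test of the difference itself, for 1 tested protease and 3 named genes of the partner lists. The difference was 1.14 ± 0.21 (SE, log2; edgeR adjusted p 0.000774) for Adamts4, 1.67 ± 0.36 for Pcolce2, 0.50 ± 0.12 for Anxa2 and -0.72 ± 0.15 for Mme, beside 1.43% of all genes tested that passed. Adamts4 passed under every alternative run, also without SAM replicates 2 and 3. No outlier test was applied within the groups of 3 libraries.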

How the results depend on the processing

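Over 27 alternatives, 48 of 62 called pairs of member and comparison were called throughout, 14 lost their call in at least 1, and 0 reversed. Another 21 pairs, of 17 genes, were called in at least 1 alternative only, 14 of them in 1. Besides those given with the genes, leaving out 1 library called SAM against control for Mmp9 (control replicate 1, -1.74) and Mmp19 (SAM replicate 2, -1.49). It called TGFβ+SAM against SAM for Mmp19 (SAM replicate 3, -1.32) and Adamts9 (TGFβ+SAM replicate 2, -2.00). It also called Mmp23 in that comparison (TGFβ+SAM replicate 1), at a fitted -5.74 with no Mmp23 read left in TGFβ+SAM. It called TGFβ+NAM against NAM for Mmp11 (NAM replicate 1, -0.61) and Adamtsl5 (TGFβ+NAM replicate 3, -1.04), Timp3 in TGFβ+SAM against TGFβ (TGFβ+SAM replicate 2, -0.28) and the SAM interaction of Mmp14 (TGFβ replicate 3, 0.48). Adamts10 in TGFβ+SAM against TGFβ was called by DESeq2, and Adamtsl4 with SAM alone with only the compared groups. The count of members called was within 1.5 times the main count except as follows. NAM against control gave 1 with DESeq2 and 1 without a low-count filter (Mmp2, in place of 0). SAM against control gave 3 without both SAM libraries with conflicting tags. With single libraries left out, the counts ran from 11 to 13 for TGFβ against control, 7 to 8 for SAM against control, 11 to 12 for TGFβ+NAM against NAM, 11 to 14 for TGFβ+SAM against SAM, 12 to 16 for TGFβ+SAM against control, 2 to 5 for TGFβ+SAM against TGFβ and 1 to 2 for the interaction of SAM with TGFβ, with 2 reached without TGFβ replicate 3. They stayed at 0 for both NAM comparisons and the NAM interaction. The cause of these shifts was not tested.

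Same-numbered libraries did not deviate together (r from -0.0997 to 0.0696 over 45 pairs, 6 of 18 libraries closest to their own number), so the numbers were not taken as pairs. With the replicate block the counts of members called were unchanged: 11, 0, 7, 0, 5, 11, 13, 14, 0 and 1 in the order of the 8 comparisons and 2 interactions. Over all genes, TGFβ+NAM against TGFβ gave 11 calls, 40 with DESeq2, 32 without a filter and 0 with only the compared groups. Other scalings moved the median of all genes by less than 0.1. Depth limits genes near 0 reads, such as Adamts16, Adamts7 and Adam12, whose folds depend on few reads.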
